A study of Homo sapiens with 4 samples.

Results

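Transcripts of 38 genes of base excision, nucleotide excision and mismatch repair were measured before and after gamma irradiation in H9, a long-established human embryonic stem cell line. The 38 genes were chosen by symbol for their known function, by a rule that uses no measured value, although earlier results of these data were known when the list was drawn up. Of the 38, 21 act in base excision repair and poly(ADP-ribose) turnover, 12 in nucleotide excision repair and 5 in mismatch repair. A probe was found for 35 of them among the 18348 genes named on the Illumina bead array. PARP1, SMUG1 and MBD4 were not analysed here. All 35 passed the detection filter, a detection p under 0.05 on at least 2 of the 4 arrays, and stood among 11030 genes tested. ERCC6 and ERCC4 passed through the 0 h arrays alone, so a lower signal at 24 h was built into their passing.

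The 4 arrays held 2 samples of untreated H9 cells (0 h) and 2 samples collected 24 h after gamma radiation (24 h). Both groups were of the same line, with no transgene or drug named in the labels, and were grown in a medium with serum replacement and basic FGF. The labels give no dose. Nor do they state that replicates came from separate cultures, so the p-values reflect the spread of these arrays alone, part or all of which may be technical. No unirradiated sample at 24 h was analysed here, so irradiation and a day in culture cannot be told apart.

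Base excision repair removes small damage such as oxidised, deaminated or alkylated bases: a glycosylase cuts out the base, an AP endonuclease nicks the strand, and a polymerase and a ligase close the gap with the help of poly(ADP-ribose) enzymes that sense the nick. Nucleotide excision repair cuts out a short stretch of the strand around bulky lesions, found either across the genome or where RNA polymerase has stalled. Mismatch repair corrects errors left by the replicative polymerases. Ionising radiation makes oxidised bases and single-strand breaks beside double-strand breaks, and pluripotent stem cells are known for high expression of many repair genes.

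Of 11 pluripotency markers 8 were tested, all 8 were detected on all 4 arrays, and 2 lay above 0 (POU5F1 and NANOG) and 6 below. None of the 8 passed the adjusted threshold. The change with the smallest p was -0.72 ± 0.11 for the DNA methyltransferase gene DNMT3B (limma adjusted p = 0.0511). Under 5 of the 12 alternatives 1 to 3 of the 8 passed, beside 3.52% to 22.9% of all genes. Of 19 fibroblast and mesenchyme markers 8 were tested, and all 8 were higher on both 24 h arrays than on both 0 h arrays (30.3% of all genes were). Of the 8, 5 were past the adjusted threshold, beside 1.35% of all genes called higher. The 8 together summed to 12610 and 12720 units of normalized signal before irradiation and to 21860 and 21420 units after it. The other 11, among them COL3A1, LUM, DCN and POSTN, did not reach the detection filter. In such bulk samples fewer cells of a type and less RNA per cell cannot be told apart. The ratio of the brightest raw signals to those of undetected probes was lower at 24 h, at 69.7 and 60.4 against 82 and 83.1 at 0 h. All arrays lay on 1 slide, each at its own position, and the effects of position and time cannot be told apart. What part these differences had in the values below was not tested.

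None of the 35 repair genes passed the test across all genes, in which 2.28% of the 11030 genes did (limma, Benjamini-Hochberg adjusted p under 0.05). Higher at 24 h were 0 of the 35 beside 149 genes (1.35%), and lower 0 of the 35 beside 102 genes (0.925%). Of the calls 59.4% were higher, and 49.8% (359 higher, 362 lower) with scaling to the 75th percentile. The smallest adjusted p among the 35 was 0.0623, for UNG. At an unadjusted p under 0.05 there were 11 of 35, 3 higher and 8 lower, or 31.4% beside 30.3% of all genes tested. In the higher direction the background was 15% of all genes and in the lower direction 15.3%. The 24 h arrays did not overlap the 0 h arrays for 22 of the 35, or 62.9% beside 61.6% of all genes. They lay above in 7 (30.3% of all genes) and below in 15 (31.3%). By both measures the share of repair genes was near that of the whole array when the directions were pooled. By direction it was not as even as over all genes, with 8 lower and 3 higher, and 15 below and 7 above. The 8 and the 15 each include ERCC6 and ERCC4, whose lower signal was built into their passing the detection filter. Changes under 0 made up 60.0% of the 35 and 50.6% of all genes. Whether the repair genes differ from all genes in direction was not tested. Without 0 h replicate 2 the count at an unadjusted p under 0.05 was 7.

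Every change below is the 24 h mean minus the 0 h mean on the log2 scale, followed by ± its standard error (SE) from limma, over 2 arrays per time. The median change was -0.04 for the 18 base excision genes tested, -0.12 for the 12 nucleotide excision genes and -0.44 for the 5 mismatch repair genes, beside -0.01 for all genes. The base excision median was on the other side of 0, at 0.07, without 0 h replicate 2. All 35 changes lay between -0.58 and 0.75. The 95% confidence interval, not adjusted for the number of genes, stayed inside a 2-fold change in either direction for 31 of the 35. The intervals of NEIL1, TDP1, MLH3 and PARP3 reached beyond it.

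**Figure D1:**
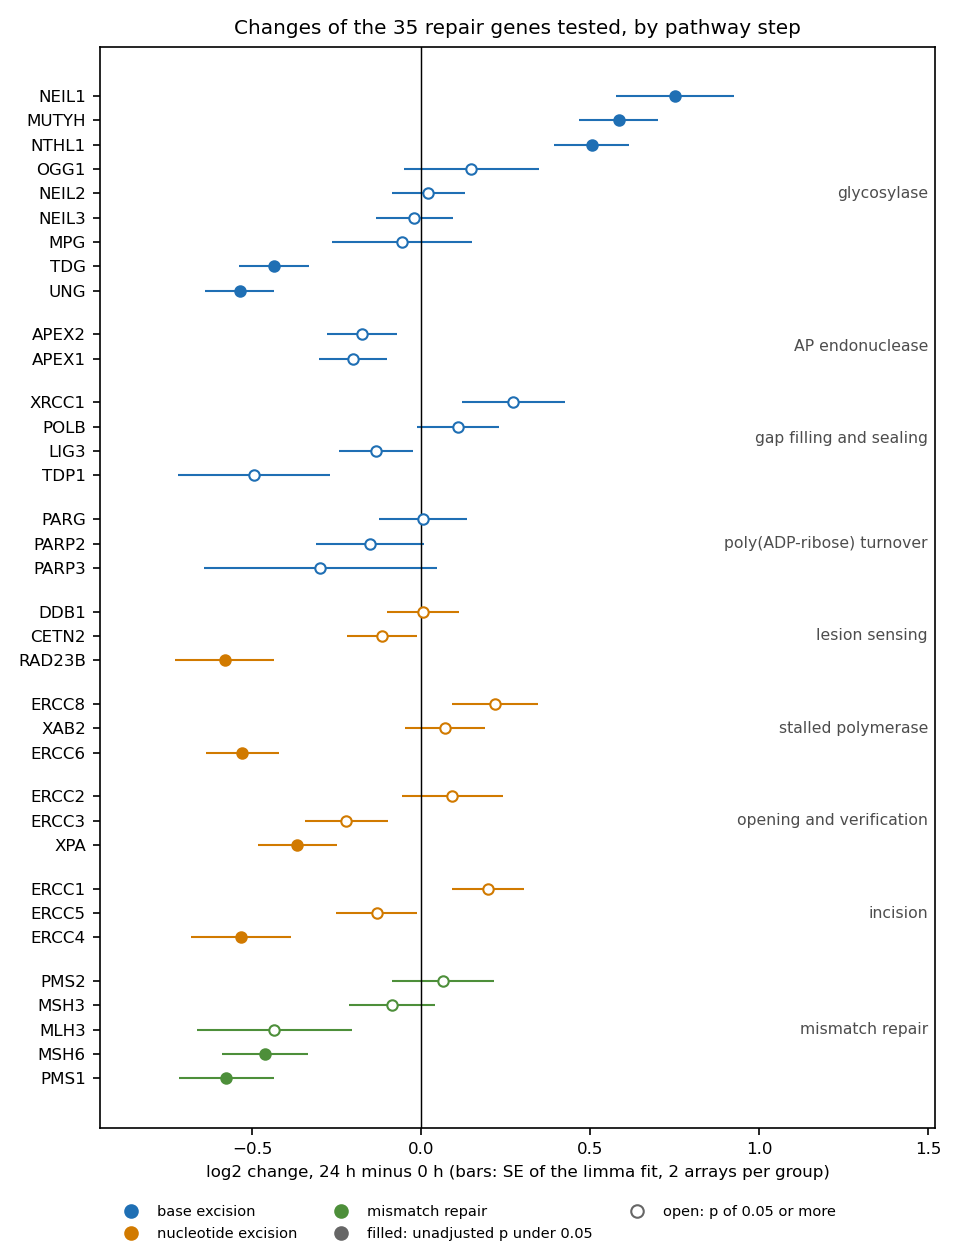
Log2 change, 24 h minus 0 h, of each of the 35 repair genes tested (points; bars are the SE of the limma fit, 2 arrays per group), grouped by pathway step and coloured by pathway. Filled points mark the 11 genes with an unadjusted p under 0.05; among the glycosylases 3 filled points lie above 0 and 2 below, and in the other steps every filled point lies below 0.

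Of the 9 glycosylases tested, which choose the lesion, 5 had an unadjusted p under 0.05, or 55.6% beside 30.3% of all genes. These 5 pointed both ways, and no other base excision gene had such a p. Over the 18 base excision genes tested the share was 27.8%. UNG, which removes uracil from DNA, had normalized log2 signals of 12.562 and 12.600 at 0 h and 12.060 and 12.028 at 24 h. Replicates lay close together, and both 24 h arrays were below both 0 h arrays. The change was -0.54 ± 0.10, a 1.45-fold lower signal (limma adjusted p = 0.0623). TDG, the glycosylase of G:T mismatches that also excises oxidised forms of methylcytosine in active DNA demethylation, read 12.080 and 12.160 at 0 h and 11.686 and 11.680 at 24 h. It too was lower on both 24 h arrays, by -0.44 ± 0.10 (limma adjusted p = 0.0798).

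A further 3 glycosylases with an unadjusted p under 0.05, NTHL1, MUTYH and NEIL1, stood higher at 24 h. NTHL1, which removes oxidised pyrimidines, read 10.110 and 10.015 at 0 h and 10.511 and 10.623 at 24 h. Its change was 0.50 ± 0.11, or 1.42-fold (limma adjusted p = 0.0727). MUTYH, which takes out adenine paired with 8-oxoguanine, read 10.497 and 10.463 at 0 h and 10.977 and 11.153 at 24 h. That was a change of 0.58 ± 0.12 (limma adjusted p = 0.065). Neither gene's groups overlapped. NEIL1, another glycosylase of oxidised bases, read 5.570 and 5.149 at 0 h, where it was detected on 1 of the 2 arrays, and 6.156 and 6.068 at 24 h. It had the largest change of the 35, 0.75 ± 0.17 (limma adjusted p = 0.0777), and the value is 0.25 without background correction. OGG1, which removes 8-oxoguanine itself, stood at 0.15 ± 0.20 with overlapping groups.

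NEIL2 (0.02 ± 0.11), NEIL3 (-0.02 ± 0.11) and MPG (-0.06 ± 0.21), the last a glycosylase of alkylated purines, also overlapped between the groups. The interval of the change was -0.27 to 0.31 for NEIL2 and -0.32 to 0.28 for NEIL3, so these arrays bound both well inside a 2-fold change. MPG was detected on 1 of the 2 arrays of each group, with an interval of -0.61 to 0.49.

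The sequences before the starts of 3 bright genes that stood lower on both 24 h arrays and of 1 that stood higher are shown so that their start regions can be compared. They are from RefSeq (GRCh38.p14), 5′ to 3′ on the gene's strand, each ending at the base before the gene's start that lies farthest upstream. UNG lies on chr12:109097347-109097596 (plus strand), TDG on chr12:103965622-103965871 (plus), MSH6, a mismatch sensor described below, on chr2:47782895-47783144 (plus) and NTHL1 on chr16:2047835-2047984 (minus). The NTHL1 stretch stops at 150 bases because TSC2 starts there on the opposite strand. Capitals mark the CCAAT box (CCAAT or, on the other strand, ATTGG) and the GC box (GGGCGG or CCGCCC). The E2F motif TTTNNCGC was searched for on both strands as well and is in none of the 4 stretches.
UNG: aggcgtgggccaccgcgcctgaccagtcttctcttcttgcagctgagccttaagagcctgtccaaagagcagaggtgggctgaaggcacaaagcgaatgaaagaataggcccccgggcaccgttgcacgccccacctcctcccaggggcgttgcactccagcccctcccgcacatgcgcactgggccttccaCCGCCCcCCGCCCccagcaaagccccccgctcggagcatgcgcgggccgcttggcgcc
TDG: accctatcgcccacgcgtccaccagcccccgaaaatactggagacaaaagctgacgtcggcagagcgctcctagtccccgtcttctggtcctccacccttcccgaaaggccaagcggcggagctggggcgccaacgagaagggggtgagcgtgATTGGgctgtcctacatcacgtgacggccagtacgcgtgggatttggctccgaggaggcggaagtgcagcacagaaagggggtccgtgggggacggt
MSH6: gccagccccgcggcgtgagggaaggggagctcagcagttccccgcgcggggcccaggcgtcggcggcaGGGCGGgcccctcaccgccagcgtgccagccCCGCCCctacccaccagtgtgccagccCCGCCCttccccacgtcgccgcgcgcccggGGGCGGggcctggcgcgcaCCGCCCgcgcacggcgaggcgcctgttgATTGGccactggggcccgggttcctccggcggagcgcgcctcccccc
NTHL1: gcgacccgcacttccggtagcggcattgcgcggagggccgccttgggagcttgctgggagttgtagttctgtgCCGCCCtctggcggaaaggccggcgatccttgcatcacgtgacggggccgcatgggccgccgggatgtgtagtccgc
The stretches of TDG and MSH6 hold 1 CCAAT box each, those of UNG, MSH6 and NTHL1 hold 2, 5 and 1 GC boxes, and no capital stretch belongs to more than 1 motif. A second start of UNG lies 575 bases downstream, and its 250 bases hold 1 E2F motif, 3 CCAAT boxes and 3 GC boxes. Over the 250 bases before each of 49 starts that the RefSeq table holds for 35 of the 38 repair genes (PARP1 and MBD4 among them), the E2F motif was in 16.3%, the CCAAT box in 46.9% and the GC box in 67.3%. Among the 13016 starts of all genes tested, the shares were 8.42%, 33.2% and 63.2%. The shares count starts, not genes, and the stretches of 1 gene can overlap. Both listed starts of PMS2 do so, and each holds an E2F motif. All these are matches of letters, not sites of binding.

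**Figure D2:**
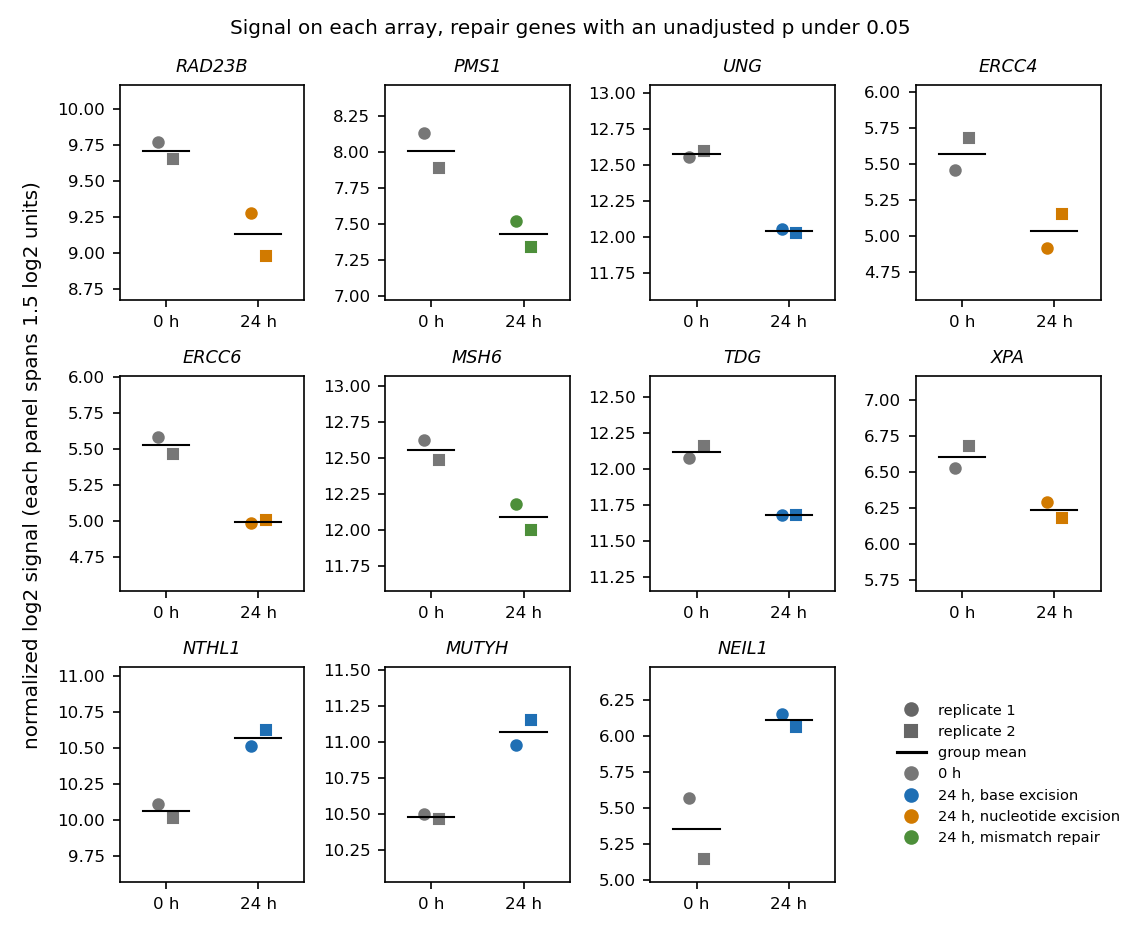
Normalized log2 signal (y axis, 1.5 log2 units in each panel) at 0 h and 24 h for the 11 repair genes with an unadjusted p under 0.05; circles are replicate 1, squares replicate 2 and lines the group means. The time points do not overlap in any of the 11 panels: the 24 h arrays are the lower ones in 8 and the higher ones in NTHL1, MUTYH and NEIL1.

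After the glycosylase, APEX1, the main AP endonuclease, read 12.858 and 12.869 at 0 h and 12.672 and 12.649 at 24 h, and APEX2 read 9.992 and 9.958 at 0 h and 9.833 and 9.768 at 24 h. Both were lower on each 24 h array by small amounts, -0.20 ± 0.10 and -0.17 ± 0.10, and neither passed even at an unadjusted p under 0.05 (limma adjusted p = 0.253 and 0.321). The gap-filling polymerase POLB stood at 0.11 ± 0.12, the scaffold XRCC1 at 0.27 ± 0.15 and its partner ligase LIG3 at -0.14 ± 0.11. TDP1, which clears blocked 3′ ends, stood at -0.50 ± 0.23, with signals of 6.768 and 7.218 at 0 h and 6.703 and 6.292 at 24 h. The TDP1 interval of -1.09 to 0.10 includes a 2-fold lower signal, and the change was -0.23 without background correction. Of the poly(ADP-ribose) genes, PARP2, a polymerase that responds to strand breaks, stood at -0.15 ± 0.16, PARP3 at -0.30 ± 0.35 and the glycohydrolase PARG, which takes the polymer apart, at 0.00 ± 0.13, each with overlapping groups.

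In nucleotide excision repair 4 of the 12 genes had an unadjusted p under 0.05, or 33.3% beside 30.3% of all genes. They were RAD23B and XPA, both lower at 24 h, and ERCC6 and ERCC4, whose lower signal was built into their passing the detection filter. Without background correction RAD23B alone had such a p. RAD23B, which stabilises the sensor XPC, read 9.768 and 9.652 at 0 h and 9.278 and 8.979 at 24 h. Its change was -0.58 ± 0.15, the most negative of the 35 (limma adjusted p = 0.0862). The other sensing genes CETN2 (-0.12 ± 0.10) and DDB1 (0.01 ± 0.11) lay closer to 0. DDB1, the adaptor that holds the ultraviolet sensor DDB2 on its ubiquitin ligase, read 13.169 and 13.218 at 0 h and 13.151 and 13.247 at 24 h. Its interval ran from -0.28 to 0.29.

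ERCC6, the ATPase that recognises a stalled polymerase, read 5.581 and 5.466 at 0 h and was not well above background on either 24 h array, at 4.983 and 5.003. The measured change was -0.53 ± 0.11 (limma adjusted p = 0.0662), and a bound that uses the lowest detected signal of each 24 h array gives 1.02-fold lower. The bound ignores the spread of the 0 h signals. Of these, 5.466 was itself below the lowest detected signal of 24 h replicate 1, 5.509, so a decrease is not shown. Its partner ERCC8 read 7.794 and 7.919 at 0 h and 7.975 and 8.172 at 24 h, a change of 0.22 ± 0.13 in the other direction. XAB2, which binds the stalled complex, stood at 0.07 ± 0.12.

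XPA, which verifies the damaged strand, read 6.532 and 6.679 at 0 h and 6.294 and 6.183 at 24 h. Both 24 h arrays were lower, by -0.37 ± 0.12 (limma adjusted p = 0.125). The TFIIH helicases stood at 0.09 ± 0.15 (ERCC2) and -0.22 ± 0.12 (ERCC3). Among the nucleases, ERCC4 read 5.454 and 5.681 at 0 h and was not well above background at 24 h, at 4.916 and 5.152. Its measured change was -0.53 ± 0.15 (limma adjusted p = 0.1), and the same kind of bound gives 1.06-fold lower. The 0 h signal of 5.454 was itself below the lowest detected signals of the 24 h arrays, 5.509 and 5.471, so a decrease is not shown. The brightest probe of ERCC1, the obligate partner of ERCC4, stood at 0.20 ± 0.11, and ERCC5, which cuts on the other side of the lesion, at -0.13 ± 0.12. ERCC6, ERCC4 and XPA are dim, and without background correction their changes were -0.19, -0.19 and -0.15.

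Mismatch repair had 4 of its 5 genes below 0, beside 50.6% of all genes. With scaling to the 75th percentile or the mean of probes it was 5 of 5, as PMS2 moved from 0.06 to -0.03 and -0.08. PMS1, a MutL homologue, read 8.128 and 7.885 at 0 h and 7.517 and 7.342 at 24 h. The change was -0.58 ± 0.14, or 1.49-fold lower (limma adjusted p = 0.0831), and -0.36 without background correction. MSH6, the subunit that senses single-base mismatches, read 12.621 and 12.483 at 0 h and 12.181 and 11.997 at 24 h. That was -0.46 ± 0.13, or 1.38-fold lower (limma adjusted p = 0.098). MSH3, which takes the place of MSH6 for larger loops, stood at -0.09 ± 0.13 with overlapping groups.

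MLH3, another MutL homologue, was detected on 1 of the 2 arrays at 24 h and stood at -0.44 ± 0.23, with -0.14 without background correction. PMS2, the MutL subunit with the nicking activity, stood at 0.06 ± 0.15. PMS2 has many near-identical pseudogenes, and its probes may read them too. The list's median is a single gene's value, MLH3, and without 24 h replicate 2 it was -0.16.

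Of the 58 probes that name these genes 53 passed the detection filter, and 13 genes had more than 1 such probe. In 8 of the 13 all probes pointed one way, and in 5 (UNG, DDB1, ERCC8, ERCC1 and PMS2) they did not. ERCC1 differed most between its probes. Its 2 brightest probes stood at 0.20 ± 0.12 and 0.06 ± 0.11 in a fit by probe. The next, annotated to the same transcript as those, read 8.030 and 8.082 at 0 h and 7.703 and 7.574 at 24 h, a change of -0.42 ± 0.12. The dimmest, annotated to another transcript, read 6.219 and 5.751 at 0 h and 6.914 and 7.387 at 24 h, a change of 1.17 ± 0.25 (limma adjusted p = 0.0969 over 20361 probes).

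UNG had 3 probes. The probe annotated to a second transcript read 7.514 and 7.533 at 0 h and 6.685 and 7.003 at 24 h, and its change of -0.68 ± 0.16 lay on the same side as that of the bright probe. The dimmest, annotated to the transcript of the bright probe, read 5.429 and 6.242 at 0 h and 5.915 and 7.102 at 24 h, with overlapping groups and a change of 0.67 ± 0.50. With the mean of its probes UNG therefore stood at -0.18 (adjusted p = 0.609). The second probe of TDG, read at 9.942 and 10.175 at 0 h and 10.055 and 9.965 at 24 h, overlapped between the groups (-0.05 ± 0.14), and the mean of both TDG probes was -0.24 (adjusted p = 0.241). The 3 probes of MUTYH all lay above 0, at 0.58 ± 0.13, 0.35 ± 0.14 and 0.25 ± 0.18. In the fit by probe 0 of the 53 probes and 0% of all 20361 probes passed an adjusted p of 0.05, and 14 of the 53 had an unadjusted p under 0.05, or 26.4% beside 25.7% of all probes.

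**Figure D3:**
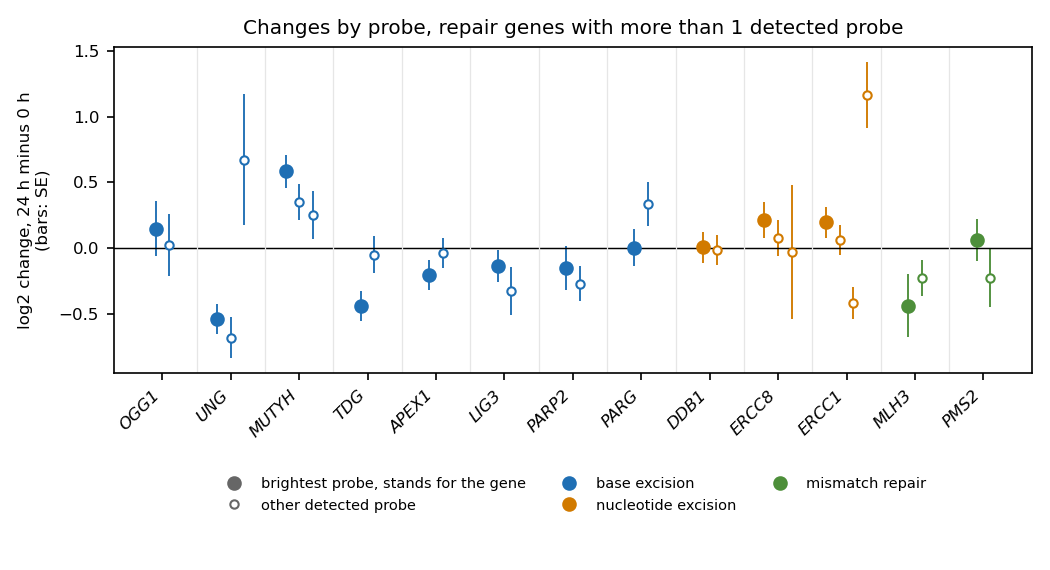
Log2 change, 24 h minus 0 h, of every detected probe (points; bars are the SE of the fit by probe) of the 13 repair genes with more than 1, with the brightest probe of each gene filled. ERCC1 spans -0.42 to 1.17 and UNG -0.68 to 0.67, while the 3 MUTYH probes lie above 0.

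Calls of these genes depended on the processing, as did those of all genes. Without background correction 7 of the 35 passed (20.0%, beside 19.9% of all genes), and with a variance prior that follows the signal level and resists outliers 7 passed as well (20.0% beside 22.9%). Both sets held UNG, TDG, RAD23B, PMS1 and MSH6 as lower and MUTYH and NTHL1 as higher. When a probe had to be detected on all 4 arrays, 6 of 29 passed (20.7% beside 14.2%), the same genes without MSH6. With scaling to the 75th percentile UNG alone passed (2.86% beside 6.54%). None passed with the mean of probes or in the authors' deposited table of log2 values, where 3.05% and 3.52% of all genes did. With a single array left out, neither any of the 35 nor any other gene passed, though 7 to 12 of the 35 had an unadjusted p under 0.05.

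**Figure D4:**
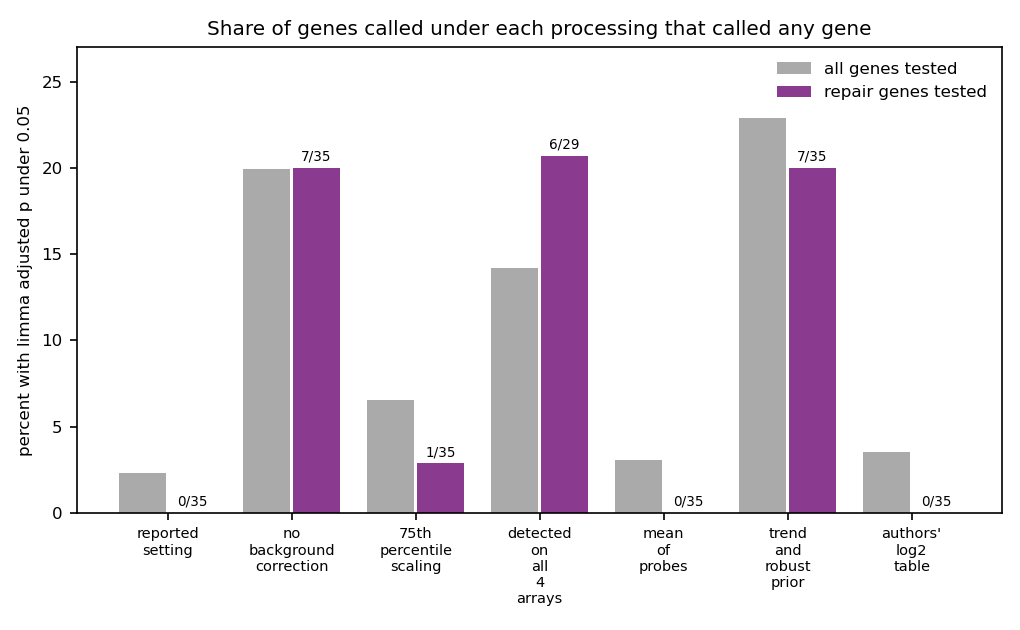
Percent of genes with a limma adjusted p under 0.05 (y axis) under each processing that called any gene, for all genes tested (grey) and for the repair genes tested (purple, with the count above each bar). The share of repair genes is 0 in the reported setting and 20.0% without background correction, beside 2.28% and 19.9% of all genes.

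Of the other genes of these pathways, taken from lists of known components, 1 passed, beside 2.28% of all genes. In nucleotide excision repair 16 of 18 were tested, with 1 higher and 0 lower, beside 1.35% and 0.925% of all genes. DDB2, the ultraviolet damage sensor that DDB1 carries and a p53 target, read 7.623 and 7.410 at 0 h and 8.685 and 8.606 at 24 h. It rose by 1.13 ± 0.13 on the log2 scale (limma adjusted p = 0.0456). With no detection filter or with a replicate block DDB2 no longer passed, and 0 of all genes passed under these settings. Its change ranged from 1.02 to 1.24 with a single array left out. XPC, the lesion sensor that RAD23B binds, stood at 0.33 ± 0.12 (limma adjusted p = 0.16), and GTF2H1, a TFIIH subunit, at -0.46 ± 0.15. XPC stood at 0.18 with 75th percentile scaling, and GTF2H1 at -0.21 without background correction.

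None of the 9 other base excision genes tested passed. The 3 of smallest p were HMGB1, a chromatin protein that also takes part in base excision, at -0.94 ± 0.18 (limma adjusted p = 0.0617), TDP2, which clears blocked 5′ ends, at -0.71 ± 0.13 (0.0624) and ALKBH3, a direct reverser of alkylation, at -0.50 ± 0.10 (0.0679). Without background correction TDP2 stood at -0.31. Of the 9, 4 passed without background correction and with the trend and robust prior, 3 with detection on all 4 arrays and 2 with 75th percentile scaling. Of all genes 19.9%, 22.9%, 14.2% and 6.54% passed under these settings, in that order. HMGB1 has many processed pseudogenes, which its probe may read. Of 2 other mismatch repair genes tested 0 passed, with the exonuclease EXO1 at -0.38 ± 0.10 (limma adjusted p = 0.0936) and at -0.19 with the mean of its probes. EXO1 passed without background correction and with the trend and robust prior. Of 19 genes of shared resynthesis (clamp, clamp loader, single-strand binding, replicative polymerases, ligase and flap nuclease) 0 passed. At an unadjusted p under 0.05 there were 1 higher and 2 lower, or 15.8% beside 30.3% of all genes. The polymerase delta subunits POLD4 and POLD3 lay on opposite sides of 0, at 1.00 ± 0.15 (limma adjusted p = 0.0516) and -0.48 ± 0.12 (0.0826), and RFC5, a clamp loader subunit, stood at -0.29 ± 0.10. POLD4 passed under 6 of the 12 alternatives, and its change was 0.44 without background correction.

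By the RefSeq annotation, 13 of the 35 repair genes with a start in its table have a neighbour on the opposite strand that starts within 1000 bases upstream of them. In 10 such pairs both genes were tested, and the changes had the same sign in 5 and opposite signs in 5. MUTYH and TOE1, a deadenylase gene, have starts 50 bases apart at the nearest, and the annotated genes overlap by 271 bases. MUTYH stood at 0.58 ± 0.12, while TOE1 read 7.526 and 7.625 at 0 h and 7.196 and 6.636 at 24 h, a change of -0.66 ± 0.21 (limma adjusted p = 0.127). The TOE1 value was -0.38 without 24 h replicate 2, -0.94 without 24 h replicate 1 and -0.35 without background correction. NTHL1 stood at 0.50 ± 0.11 and TSC2, whose start lies 151 bases away, at -0.05 ± 0.12. PMS1 and ORMDL1, with starts 111 bases apart, were both below 0, at -0.58 ± 0.14 and -0.24 ± 0.12 (-0.60 for ORMDL1 with the mean of its probes).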

How the data were processed

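The deposited raw table gives, per the file headers, each probe's mean bead intensity and its detection p-value on each of the 4 arrays, for 47217 probes. The authors' deposited processed table holds log2 values of 34466 probes. The submitters' processing notes name limma, with no version. Those log2 values correlated across probes at 0.99998 with neqc values of the same intensities, the largest difference being 0.0563, so scale and direction are those of neqc, and genes are not centred (column medians 5.35 to 5.36). How its probes were chosen is not given in the sources used here.

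Intensities were background-corrected from the detection p-values and quantile normalized (neqc, offset 16) with limma 3.58.1 in R 4.3.3. Probes with a detection p under 0.05 on 2 or more arrays were used (20361). Raw medians were 134.7 to 175.2 and 19705 to 20443 probes were detected per array. Names came from the platform annotation (1 symbol for 26358 probes, several for 3, none for 20856), of which 26325 matched RefSeq identifiers with 0 symbols changed. A gene was represented by its brightest probe. The model compared 24 h with 0 h (lmFit, eBayes, no block), with two-sided p-values adjusted by Benjamini-Hochberg over 11030 genes. With 2 arrays per group an exact permutation test could not go below p = 0.333. The fit was also run on simulated data with independent noise and planted changes larger than those of the 35 repair genes. That run does not cover changes of the size reported or effects of array position.

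The genes and lists were chosen with earlier results of these data known. Values on every array are given for genes with an unadjusted p under 0.05. From the other lists, genes called and at most the 3 of smallest p are named. TOE1, TSC2, ORMDL1 and the array values of some further genes were chosen after their values were seen. For a gene not detected at 24 h, the bound replaces each 24 h value by that array's lowest detected signal where this is higher. Alternatives were the background correction, scaling, detection filter, probe rule, variance prior, the authors' table, a replicate block and leaving out each array.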

Additional observations from a re-analysis of the deposited data

How the results depend on the processing

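Directions of the 11 repair genes with an unadjusted p under 0.05 stayed the same under all alternatives run. There were 12 for 8 of these genes. NEIL1, ERCC6 and ERCC4 had 11, as they were not tested when detection on all 4 arrays was required. Most alternatives could not turn these signs. The variance prior, the replicate block and the other detection filters left the changes as they were. Groups that do not overlap keep their sign when 1 array is left out. The authors' table differed from the values used here by at most 0.0563, too little to turn the signs of these 11 genes. Only the background correction, the scaling and, for UNG, TDG and MUTYH, the probe rule could turn a sign. Over all 35 genes 365 of 414 values had the same direction and call. A further 21 also passed the adjusted threshold and 28 had the other sign. The number of genes called, 251, became 2199 without background correction, 721 with 75th percentile scaling, 1370 with detection on all 4 arrays, 2522 with the trend and robust prior and 388 in the authors' log2 table. In limma it was 0 without a detection filter (3456 at an unadjusted p under 0.05), 0 with a replicate block (3828) and 0 with any 1 array left out (1831 to 3341), where a lone array is assumed to vary like the other group. With the replicate block 0 of the 35 passed and 11 had an unadjusted p under 0.05; the replicate 1 deviations of both groups correlated at r = 0.1543 across genes, and the samples share only a number. Calls among the 35 were 7, 1, 6 and 7 without background correction, with 75th percentile scaling, with detection on all 4 arrays and with the trend and robust prior.

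The mismatch repair median was -0.14 without background correction, -0.21 with 75th percentile scaling and -0.27 with detection on all 4 arrays. The nucleotide excision median was -0.195 and -0.055 under the last 2 of these. With 1 array left out, 7 to 12 of the 35 had an unadjusted p under 0.05, and the medians ranged from -0.0868 to 0.0682 (base excision), -0.163 to -0.0851 (nucleotide excision) and -0.55 to -0.16 (mismatch repair). Signs turned with 75th percentile scaling for NEIL2 (-0.052), MPG (0.22), POLB (-0.034), PARP3 (0.0241), PARG (-0.0025), XAB2 (-0.0944), ERCC2 (-0.0389) and PMS2 (-0.0308), and with the mean of probes for DDB1 (-0.0035) and PMS2 (-0.08). With 1 array left out they turned within the ranges -0.0496 to 0.345 (OGG1), -0.0394 to 0.0809 (NEIL2), -0.0984 to 0.0556 (NEIL3), -0.33 to 0.21 (MPG), -0.11 to 0.12 (PARG), -0.321 to 0.0167 (PARP2), -0.71 to 0.11 (PARP3), -0.042 to 0.054 (DDB1), -0.0136 to 0.154 (XAB2), -0.0739 to 0.257 (ERCC2), -0.203 to 0.0308 (MSH3), -0.0893 to 0.218 (PMS2) and -0.130 to 0.0266 (TSC2). The cause was not tested. Dim genes were measured less precisely: the median SD between replicates was 0.332 among the dimmest genes and 0.073 among the brightest.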
